A study of Mus musculus with 12 samples.

Results

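Erythroid precursor genes are genes that red cell precursors switch on while they build haemoglobin and the red cell membrane. The 9 described here, Alas2, Rhag, Rhd, Slc4a1, Gata1, Klf1, Tfrc, Hemgn and Ermap, were found by symbol among the 22609 gene symbols that each library lists. They were chosen by their read counts, since the list was drawn up with the values of these same libraries known, so their levels and differences are given as a description with no test.

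RNA was sequenced from whole dorsal root ganglia (DRG) and from hind paw tissue of C57BL/6J mice, an inbred strain without a transgene. There were 4 groups of 3 libraries each, Female whole DRG, Male whole DRG, Female hind paw and Male hind paw. The labels give an age of 8 to 14 weeks and 20 µl of saline into the hind paw for all groups, whereas the methods describe naive mice of 8 to 12 weeks with females in estrus. Mice were perfused with phosphate buffer before both tissues were taken, and the hind paw sample was a skin punch of epidermis, dermis and part of the fat. Both are mixed tissues, so fewer cells of a type and less RNA per cell cannot be told apart in any value below. Whether the DRG and hind paw libraries come from the same mice is not stated for single libraries, and p-values measure the spread between these samples.

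In the marrow, erythroid precursors take up iron through the transferrin receptor, load it into heme and fill the cell with globin, while GATA1 and KLF1 drive the genes of the programme. The maturing cell then sets band 3 and the Rh complex into its membrane, expels its nucleus and leaves as a reticulocyte that still carries RNA. A sensory ganglion and skin are not sites of red cell formation in the adult, although both are supplied with blood.

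Reads counted on genes ranged from 8988497 to 13327072 in the whole DRG libraries, with a median of 10267193, and from 6866545 to 13470783 in the hind paw libraries, with a median of 11185576. Male hind paw 2 stood apart, with 13.6% of its listed reads on genes and 55.5% not aligned uniquely, against 23.8% to 25.4% and 42.1% to 43.2% in the other 5 hind paw libraries. Values are normalized read counts, which are counts divided by the library's size factor over all 12 libraries. A count of 0 allows up to 3 counts, which is a normalized count of 2.46 to 3.57 in a whole DRG library and 2.42 to 5.11 in a hind paw library, for counting error only. Xist, the transcript of the inactive X, ran from 17373 to 18303 in female whole DRG and from 15.6 to 67.8 in male whole DRG. The Y-linked Ddx3y ran from 894 to 1222 in male whole DRG and from 0 to 1.71 in female whole DRG. In the hind paw Xist was at least 32765 in females and at most 61.4 in males, so all 12 libraries fell with their labelled sex.

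Sensory neuron markers were high in every whole DRG library, with summed normalized counts of 52502 to 71470 against 91.8 to 201 in the hind paw. Keratinocyte markers showed the opposite, at 233 to 748 in whole DRG and 339424 to 566017 in hind paw. Male whole DRG 1 stood apart from the other 5 whole DRG libraries in its skeletal muscle markers. All 8 of these genes were matched, and their summed normalized count was 2351, 7186 and 13786 in Female whole DRG 1 to 3 and 66844, 15951 and 2086 in Male whole DRG 1 to 3. These reads made up 0.613% of the reads on genes in Male whole DRG 1 and 0.0195% to 0.149% in the other 5. The most abundant was Ttn, the giant spring protein of the sarcomere, with a mean of 13389, and no gene of the list was at 0. The female against male values of the members in whole DRG are therefore given with and without Male whole DRG 1, and the part of muscle RNA in these values was not tested.

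Alas2 encodes the erythroid form of the enzyme that starts heme synthesis. It lies at chrX:146981918-147005181 on the plus strand of mm9, the build of the files. Its normalized count was 274, 264 and 164 in Female whole DRG 1 to 3 and 36.0, 136 and 132 in Male whole DRG 1 to 3. All 3 female libraries lay above all 3 male libraries, and Male whole DRG 1 was 7.61-fold below Female whole DRG 1. Hind paw values of Alas2 were 60.1, 15.3 and 18.7 in females and 58.0, 34.1 and 17.5 in males, and the sexes overlapped. The highest hind paw libraries, Female hind paw 1 and Male hind paw 1, lay above the lowest whole DRG library, Male whole DRG 1. Alas1, which encodes the form of the enzyme used outside the erythroid lineage, held a narrow range of 323 to 369 in whole DRG and 382 to 470 in hind paw. Female over male, the log2 fold change of Alas2 in whole DRG was 1.27 ± 0.41 (SE) with 6 libraries, 0.83 without Male whole DRG 1 and 1.56 without Male whole DRG 2.

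Rhag and Rhd encode the Rh-associated glycoprotein and the Rh protein, which form a complex in the red cell membrane. Rhag (chr17:40948075-40977703, plus strand) had normalized counts of 25.4, 29.9 and 20.9 in Female whole DRG 1 to 3 and 5.73, 5.95 and 20.0 in Male whole DRG 1 to 3. The female libraries again lay above the male libraries, but Male whole DRG 3 was within 1 normalized count of the lowest female. In all 6 hind paw libraries Rhag had 0 counts. Against a floor of 3 counts over the 6 hind paw libraries, the 111 counts in whole DRG put its level at least 37.4-fold higher there. The female over male log2 fold change of Rhag in whole DRG was 1.33 ± 0.45 (SE), 0.97 without Male whole DRG 1 and 2.13 without Male whole DRG 3.

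Rhd (chr4:134420451-134452087, plus strand) had normalized counts of 17.6, 23.1 and 12.5 in female whole DRG and 5.73, 13.1 and 16.7 in male whole DRG. The sexes overlapped, with Male whole DRG 1 lowest. Among hind paw libraries 4 had a level of 0, Female hind paw 3 had 0.983 and Male hind paw 2 had 1.70. With 90 counts in whole DRG and 2 in hind paw, the ratio of whole DRG to hind paw was 45.5, with a 95% exact Poisson interval of 12.2 to 381 that covers counting error only. The female over male log2 fold change in whole DRG was 0.67 ± 0.42 (SE), 0.28 without Male whole DRG 1 and 1.02 without Male whole DRG 3.

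Slc4a1 encodes band 3, the anion exchanger that anchors the red cell skeleton. At chr11:102210138-102227517 on the minus strand, it gave normalized counts of 373, 380 and 282 in female whole DRG and 89.2, 244 and 350 in male whole DRG. Male whole DRG 3 lay above Female whole DRG 3, so the sexes overlapped, and Male whole DRG 1 was again lowest. The hind paw values were 6.58, 3.59 and 12.8 in females and 9.66, 17.0 and 10.5 in males, each below every whole DRG library. From 1724 and 58 counts the ratio of whole DRG to hind paw was 30.02, with a 95% exact Poisson interval of 23.1 to 39.7, again for counting error only. The female over male log2 fold change in whole DRG was 0.65 ± 0.38 (SE), 0.24 without Male whole DRG 1 and 1.11 without Male whole DRG 3.

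The transcription factor genes had the lowest mean levels per length of the 9 in whole DRG. Gata1 encodes the zinc finger factor that starts and sustains the erythroid programme. At chrX:7536386-7555197 on the minus strand, its normalized counts were 6.85, 7.70 and 9.41 in female whole DRG and 2.46, 11.9 and 11.1 in male whole DRG. Hind paw values were 4.70, 0.898 and 1.97 in females and 0.805, 0 and 1.75 in males. Gata1 did not reach 10 counts in 3 libraries of any fit, so it has no fitted fold change, and its sexes overlapped in both tissues. Klf1, whose factor switches on the adult beta globin gene and many membrane genes, lies at chr8:87425827-87429194 on the plus strand. It gave 8.81, 8.56 and 9.41 in female whole DRG and 9.0, 10.7 and 16.7 in male whole DRG. Its highest library was Male whole DRG 3 and its lowest Female whole DRG 2, an order unlike that of Alas2. The hind paw held 4 counts of Klf1 over 6 libraries, at normalized counts of 0 to 1.88. The female over male log2 fold change of Klf1 in whole DRG was -0.40 ± 0.36 (SE). Without Female whole DRG 2, Male whole DRG 1 or Male whole DRG 3, Klf1 did not reach 10 counts in 3 libraries.

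Tfrc encodes the transferrin receptor, through which erythroid precursors and also other dividing cells take up iron. It lies at chr16:32609006-32632880 on the plus strand. Its normalized counts were 1585, 1635 and 1558 in female whole DRG and 1791, 1716 and 1766 in male whole DRG, and the male libraries lay above the female libraries by a narrow margin. Skin gave 1707, 1417 and 1509 in female hind paw and 1354, 2093 and 1754 in male hind paw. Tfrc went against the label of the list, since it was near the same level in both tissues and did not drop in Male whole DRG 1. Its log2 fold change was -0.12 ± 0.05 (SE) for female over male in whole DRG, -0.11 without Male whole DRG 1, and 0.03 ± 0.09 (SE) for whole DRG over hind paw.

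Hemgn encodes hemogen, a nuclear protein of blood precursors. At chr4:46406861-46426378 on the minus strand, it gave 51.9, 56.5 and 32.4 in female whole DRG and 12.3, 38.1 and 66.7 in male whole DRG, so males held both the lowest and the highest library. Across the hind paw libraries it lay between 2.69 and 12.1, with Male hind paw 1 highest. Its female over male log2 fold change in whole DRG was 0.34 ± 0.49 (SE), and it turned to -0.14 without Male whole DRG 1 and rose to 0.99 without Male whole DRG 3. Ermap, which encodes a membrane protein of erythroid cells with an immunoglobulin domain, lies at chr4:118848062-118862616 on the minus strand. Its normalized counts were 69.5, 87.3 and 75.3 in female whole DRG and 36.8, 39.3 and 86.7 in male whole DRG. Here Male whole DRG 1 and 2 were both low and Male whole DRG 3 lay among the females. Hind paw levels of Ermap lay between 3.22 and 13.6. Its female over male log2 fold change in whole DRG was 0.55 ± 0.31 (SE), 0.31 without Male whole DRG 1 and 1.05 without Male whole DRG 3.

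**Figure D1:**
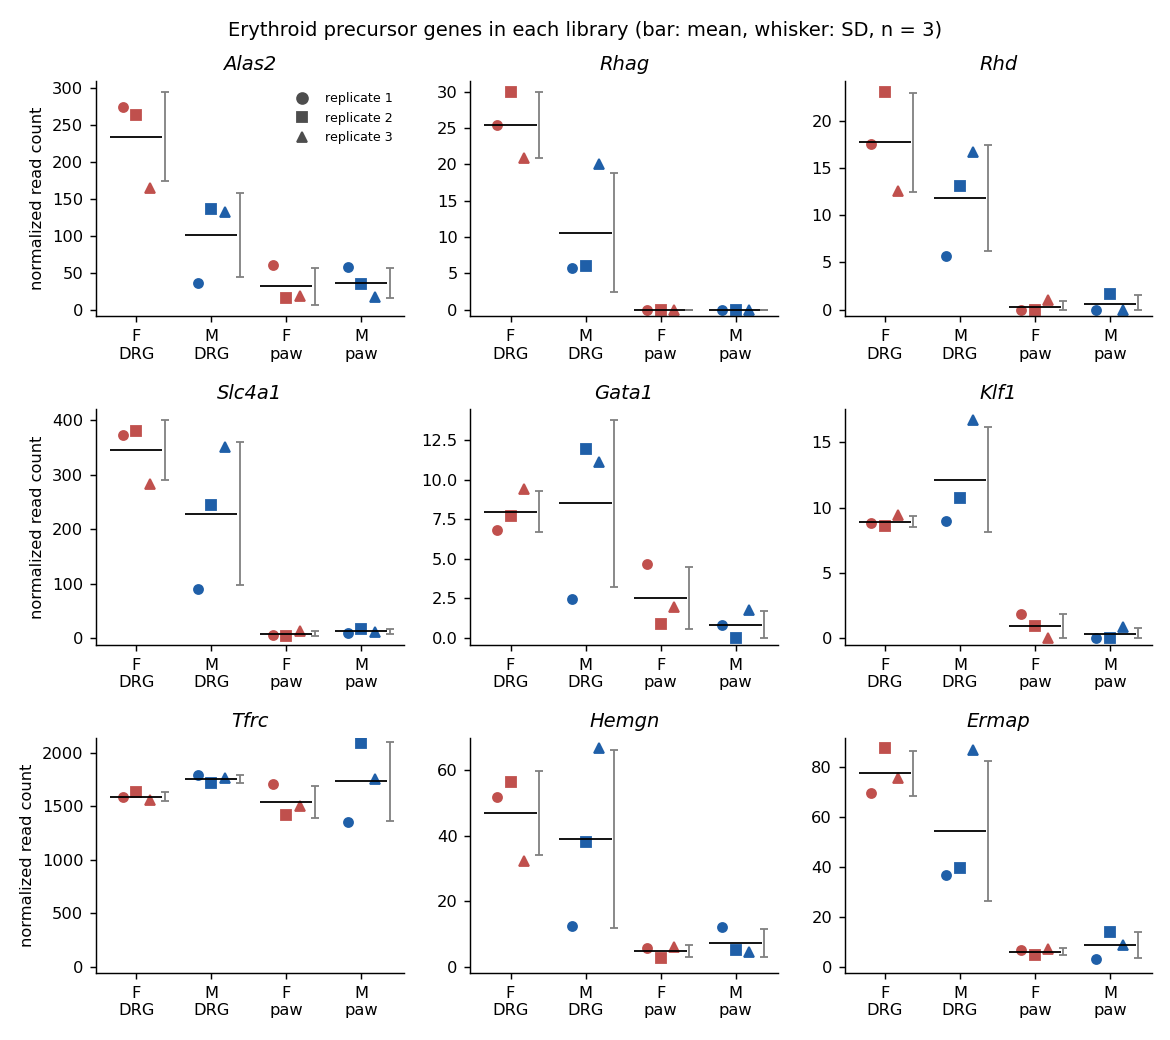
Normalized read count (y axis, linear, from 0) of the 9 genes in the 12 libraries, grouped by sex (F, M) and tissue (x axis). Each point is 1 library, its shape is the replicate number, the bar is the mean of 3 libraries and the whisker the SD. Rhag is at 0 in all hind paw libraries and Tfrc is near the same level in both tissues.

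Levels were compared between genes per length, as RPKM, which scales the reads of a gene by its exon length and by the reads on genes of the library. In whole DRG Tfrc was highest, at an RPKM of 25.6 ± 1.13 (SD, n = 6). Alas2 followed at an RPKM of 6.67 ± 3.71 and Slc4a1 at 5.57 ± 2.22, and these neighbours did not differ beyond their spread. Hemgn at an RPKM of 1.63 ± 0.747, Ermap at 1.18 ± 0.412, Rhd at 0.882 ± 0.361, Rhag at 0.734 ± 0.420 and Klf1 at 0.647 ± 0.185 formed a lower run in which each lay within the spread of its neighbour. Gata1 was lowest, at an RPKM of 0.319 ± 0.131. The hind paw order began with Tfrc at an RPKM of 24.6 ± 3.22, Alas2 at 1.32 ± 0.814 and Hemgn at 0.221 ± 0.117, and Rhag ended it at 0.

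The ratio of Alas2 to Slc4a1 was lower in whole DRG than in hind paw. In normalized counts Alas2 was 0.378 to 0.735 times Slc4a1 in the 6 whole DRG libraries and 1.46 to 9.14 times Slc4a1 in the 6 hind paw libraries, with no overlap. Per length, the ratio of Alas2 to Slc4a1 was 0.769 to 1.5 in whole DRG and 2.97 to 18.6 in hind paw. The hind paw ratios rest on few counts, since all 6 libraries together held 58 counts of Slc4a1 and 212 of Alas2.

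**Figure D2:**
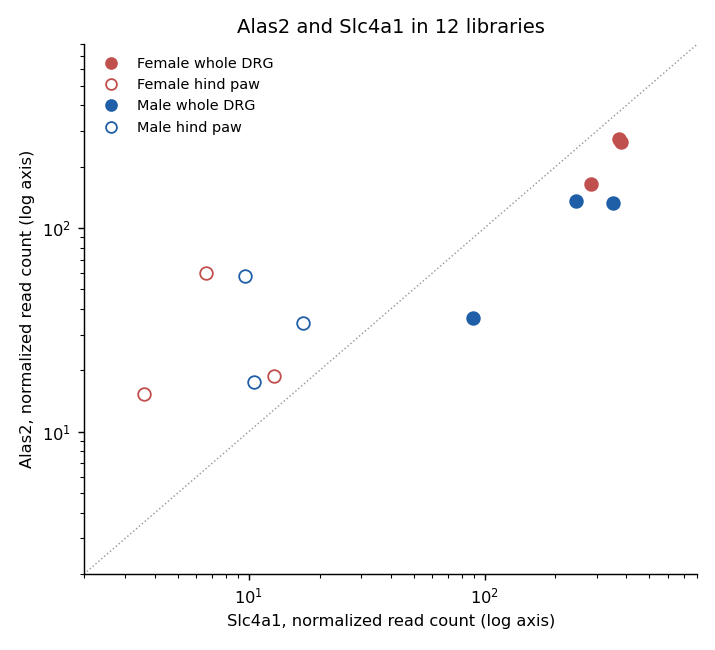
Normalized read count of Alas2 (y axis, log scale) against that of Slc4a1 (x axis, log scale) in 12 libraries, filled for whole DRG and open for hind paw, red for female and blue for male. The dotted line marks equal normalized counts, which are not corrected for gene length, and all whole DRG libraries lie below it and all hind paw libraries above it.

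A beta globin gene gave a scale for these levels. It is listed as Beta-s, an earlier symbol of Hbb-bs. Its normalized count was 3228, 2876 and 1806 in female whole DRG, 530, 1897 and 1649 in male whole DRG, 944, 79.9 and 178 in female hind paw and 898, 660 and 312 in male hind paw. Female hind paw 1 and Male hind paw 1 were the highest of the hind paw libraries both for this globin and for Alas2. The ratio of Alas2 to Beta-s ran from 0.0679 to 0.0916 in whole DRG and from 0.0517 to 0.191 in hind paw libraries, so the tissues overlapped. The ratio of Slc4a1 to Beta-s was 0.115 to 0.212 in whole DRG and 0.00697 to 0.0718 in hind paw, with no overlap. For Hemgn the ratio was 0.0161 to 0.0405 in whole DRG and 0.00597 to 0.0337 in hind paw, and for Ermap 0.0207 to 0.0694 and 0.00358 to 0.0562, so both overlapped. Globin genes share reads with near-identical copies, and the copies Hba-a1, Hba-a2, Hbb-b1 and Hbb-b2 are listed at 0 in all 12 libraries, so the globin level itself is uncertain.

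Within whole DRG the 9 genes varied between libraries to different degrees. The highest library exceeded the lowest 7.61-fold for Alas2, 5.43-fold for Hemgn, 5.23-fold for Rhag, 4.85-fold for Gata1, 4.26-fold for Slc4a1, 4.03-fold for Rhd, 2.37-fold for Ermap, 1.95-fold for Klf1 and 1.15-fold for Tfrc. The median of this ratio over all tested genes with a mean of at least 20 was 1.28, a range that Rhag, Rhd, Gata1 and Klf1 lie below. Male whole DRG 1 was the lowest of the 6 libraries for 7 of the 9 genes, all but Klf1 and Tfrc. Of all 14456 genes tested in whole DRG, 17.7% were lowest in that library.

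The groups of 3 did not overlap in whole DRG for Alas2 and Rhag, with females above males, and for Tfrc, with males above females. Of all tested genes, 4.88% had females above males without overlap and 7.42% had males above females. The members were chosen with this contrast known, so nothing is read from these counts. In the hind paw Alas2, Slc4a1 and Tfrc were the members with at least 10 counts in 3 libraries, and their female over male log2 fold changes were -0.21 ± 0.59, -0.61 ± 0.50 and -0.15 ± 0.16 (SE). Leaving out 1 hind paw library at a time moved that of Alas2 between -1.10 and 0.37.

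**Figure D3:**
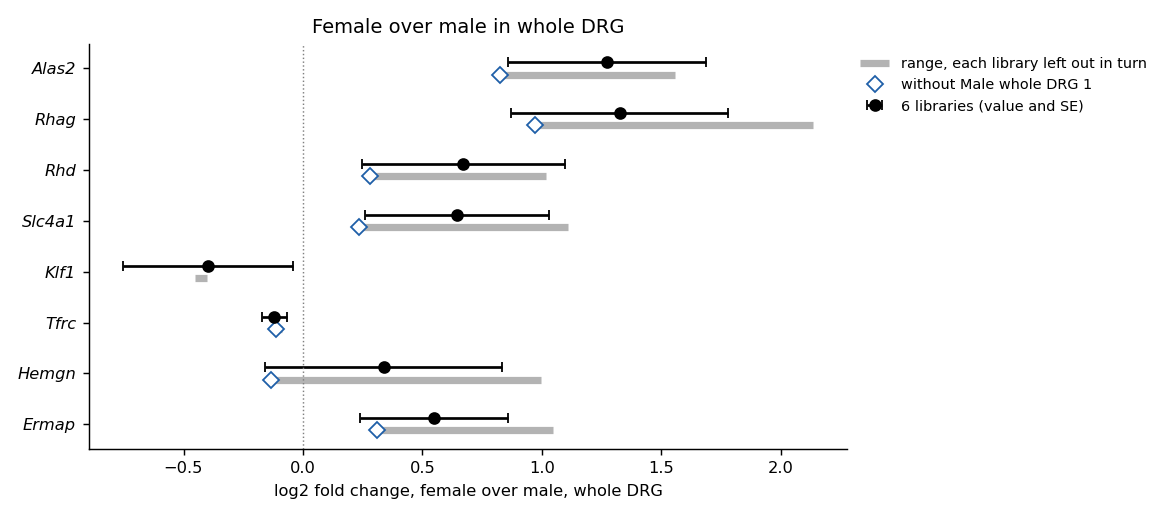
Log2 fold change of female over male in whole DRG (x axis) for the 8 genes with at least 10 counts in 3 libraries (y axis). Black points and whiskers are the value and SE from 6 libraries. Grey bars are the range when each library is left out in turn, and diamonds the value without Male whole DRG 1. The bar of Klf1 covers only the fits without Female whole DRG 1, Female whole DRG 3 or Male whole DRG 2, and Klf1 has no diamond. In the other fits Klf1 did not reach 10 counts in 3 libraries, so its short bar does not show stability. Hemgn crosses 0 without Male whole DRG 1.

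Some other marker lists were also lowest in Male whole DRG 1. Neutrophil granule genes, which marrow precursors and circulating neutrophils express, were all matched, 12 of 12. Their summed normalized count was 2355, 2446 and 2118 in female whole DRG and 924, 1791 and 2101 in male whole DRG, with S100a9 the most abundant at a mean of 495 and none at 0. The sum of the erythroid genes without Tfrc was 827, 856 and 606 in female whole DRG and 197, 499 and 701 in male whole DRG. Male whole DRG 1 was lowest in both sums.

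The 10 cell division genes also had their lowest sum in Male whole DRG 1, at 274, against 958, 751 and 659 in female whole DRG and 474 and 648 in Male whole DRG 2 and 3, and Mki67 led them at a mean of 394 with none at 0. The 7 macrophage genes summed to 1854, 1064 and 974 in female whole DRG and to 729, 913 and 926 in male whole DRG, with Csf1r the most abundant at a mean of 418 and none at 0. The 9 bone cell genes, led by Ctsk at a mean of 102 with none at 0 in all 6 libraries, summed to 351, 232 and 430 in female and 214, 233 and 185 in male whole DRG. The part of these cells in the erythroid values was not tested.

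Of the 13 B-lymphocyte precursor genes, Vpreb2 was at 0 in all whole DRG libraries and Ebf1, which other cells also express, was the most abundant at a mean of 921. Ebf1 makes up most of their sums, which lay between 977 and 1068, and the mean deviation of the 5 genes with a mean of at least 10 was lowest in Male whole DRG 1, at -0.67 log2 units. Megakaryocyte and platelet genes, 10 of 10 matched and led by Itga2b at a mean of 61.8, summed to 112 to 277, lowest in Male whole DRG 2. Mast cell, basophil and eosinophil genes, led by Prg2 at a mean of 56.4, summed to 118 in Male whole DRG 1 and to 207 to 244 in the other 5. The mean deviation of the Schwann and satellite glia list was lowest in Male whole DRG 1, at -0.18 log2 units. The sensory neuron sum, led by Nefh at a mean of 21245, was highest in Male whole DRG 1. Krt10, at a mean of 234, led the keratinocyte genes in whole DRG.

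Hind paw sums of the neutrophil granule genes were 139 to 571, led by S100a8 at a mean of 160, and those of the cell division genes 4363 to 7149, led by Mki67 at a mean of 3399. The cell division sum there exceeded that of every whole DRG library, whereas the erythroid sum without Tfrc was 27.8 to 85.5 and below every whole DRG library. Skeletal muscle genes, led by Ttn at a mean of 356490, summed to 355865, 144876 and 557046 in female and 153961, 809551 and 563930 in male hind paw, or 1.41% to 6.92% of the reads on genes, although the methods state that the punch spares muscle. The part of this RNA in the hind paw values was not tested. Macrophage genes summed to 1770 to 3625 with Csf1r at a mean of 1390, and megakaryocyte and platelet genes to 545 to 813 with Pf4 at a mean of 398. Mast cell, basophil and eosinophil genes summed to 382 to 1093 with Mcpt4 at a mean of 221, and bone cell genes to 602 to 860 with Ctsk at a mean of 359, while Mcpt8, Epx, Bglap2 and Mepe were at 0 in all 6 libraries. For B-lymphocyte precursors the sum was 472 to 605 with Ebf1 at a mean of 305, and Rag2 and Vpreb2 were at 0 in all 6. Pmp22 led the glial genes at a mean of 1890, P2rx3 the sensory neuron genes at 33.0 and Krt10 the keratinocyte genes at 260512.

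**Figure D4:**
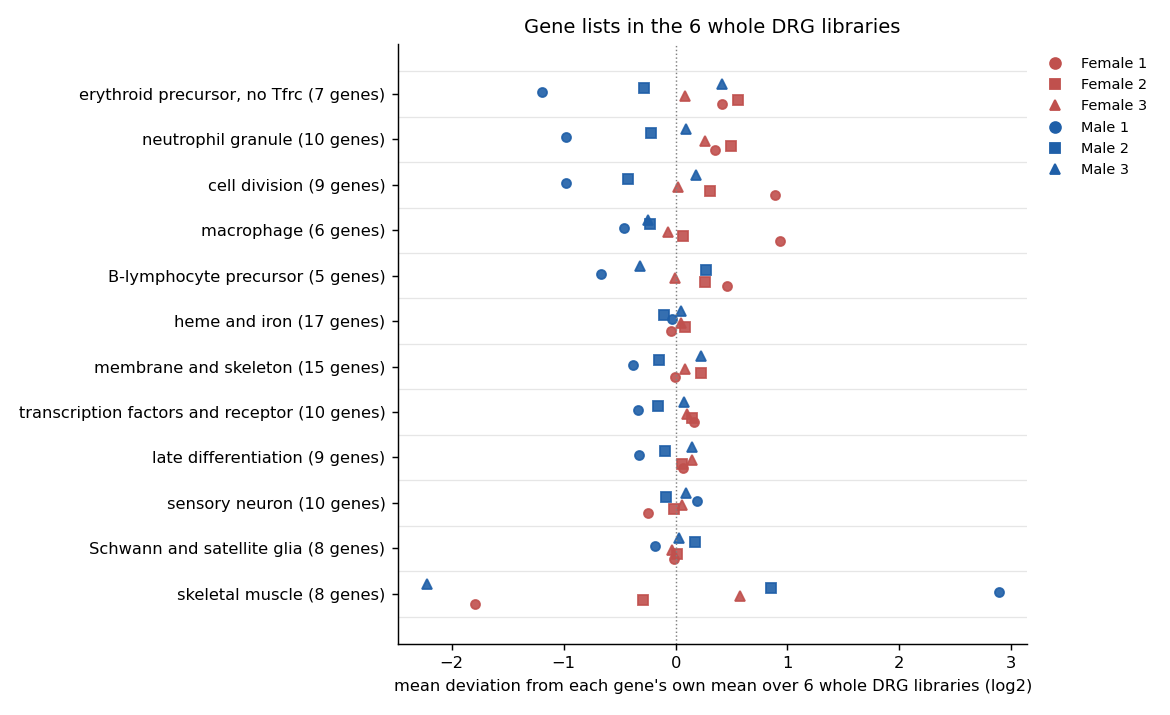
Mean deviation of each list's genes from their own mean over the 6 whole DRG libraries, in log2 of the normalized count plus 1 (x axis), for lists of erythroid, blood, neural and muscle genes with a mean of at least 10 (y axis). Red is female, blue male, and the shape is the replicate number. Male whole DRG 1 is lowest in the upper 5 lists. It is also lowest in membrane and skeleton, transcription factors and receptor, late differentiation, and Schwann and satellite glia. It is highest in sensory neuron and skeletal muscle.

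The mean pattern of the 8 members with a mean of at least 10 in whole DRG was then set beside 13419 genes with a mean of at least 20. Nearness was the root mean square difference of the centred log2 values over the 6 libraries. The 10 nearest genes outside all lists were Hist1h1a at 0.09, Tnfrsf14 at 0.14, Sla at 0.14, F630028O10Rik at 0.16, 1500015A07Rik at 0.16, Kif15 at 0.16, Ctse at 0.18, Retnlg at 0.18, Mfsd2b at 0.20 and Slc40a1 at 0.20 log2 units, against a median of 0.55 over the candidates. Hist1h1a, a linker histone gene, gave 71.4, 75.3 and 61.7 in female whole DRG and 27.0, 48.8 and 84.5 in male whole DRG. Slc40a1, the iron exporter, gave 80.2, 71.0 and 77.4 in female whole DRG and 30.3, 64.3 and 75.6 in male whole DRG. The mean pattern is itself lowest in Male whole DRG 1, at -1.03, so genes near it are low there by selection. Among the 30 nearest genes of all 13419 candidates 6 were neutrophil granule genes, from a list of 12, and Slc4a1 was the member among the 30, at rank 30. The ranking is built on the members' own values, so nothing is read from these counts. Mki67 and the erythroid gene Trim10, named after its values were seen, were also among the 30. Of the other members, Rhd lay at 0.15, Ermap at 0.24, Hemgn at 0.32 and Rhag at 0.50. Alas2 lay at 0.52, Klf1 at 0.54 and Tfrc at 0.57, and a gene without any change would lie at 0.52. Rhag, Rhd and Klf1 were not candidates, since their means lay below 20. The difference also grows with the size of a swing, and Alas2 correlated with the mean pattern, of which it is a part, at 0.92, against 0.22 for Klf1 and -0.55 for Tfrc.

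The other genes of the erythroid programme were taken as 5 lists with 68 symbols, of which 66 were matched. In whole DRG 52 of them had at least 10 counts in 3 libraries. By the quasi-likelihood test of edgeR, adjusted by Benjamini-Hochberg, 0 of the 52 passed an adjusted p of 0.05 in either direction, against 0.0208% of all tested genes higher in females and 0.0277% higher in males. At an unadjusted p under 0.05, 8 were higher in females and 2 higher in males, against 3.36% and 2.66% of all tested genes. DESeq2 called 0 of the 52, beside 8 higher in females and 7 higher in males of all 14456 tested genes. Without overlap, 4 had females above males and 3 had males above females, beside 4.88% and 7.42% of all tested genes. Their median log2 fold change was 0.06, and 0.03 without Male whole DRG 1, beside 0.00 over all tested genes. Male whole DRG 1 was the lowest library for 22 of the 52, or 42.3%, beside 17.7% of all tested genes.

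For female over male in whole DRG, the heme and iron list had a median log2 fold change of 0.06 over 17 genes, and 0.04 without Male whole DRG 1. Its most abundant genes were Fech, the enzyme that inserts iron into the ring, at 694 to 762 normalized counts, Slc25a37, the mitochondrial iron importer, at 356 to 565, and Steap3, an endosomal iron reductase, at 292 to 402. Their log2 fold changes were 0.02 ± 0.06, 0.35 ± 0.14 and 0.19 ± 0.10 (SE), and with 6 libraries only Slc25a37 of these 3 had an unadjusted p under 0.05. Without Male whole DRG 1 the call moved. Slc25a37, at 0.23, no longer passed, and Steap3, at 0.28, did. Fech thus varied little where Alas2 varied widely.

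In the membrane and skeleton list the median was 0.06 over 15 genes, and -0.00 without Male whole DRG 1. Ank1, Spnb1 and Add2, which encode ankyrin, beta spectrin and beta adducin, had 3955 to 5331, 4247 to 4904 and 1464 to 2064 normalized counts in whole DRG, and nervous tissue uses all 3. Their log2 fold changes were -0.10 ± 0.09, 0.06 ± 0.07 and -0.09 ± 0.10 (SE). Transcription factor and receptor genes had a median of 0.12 over 10 genes with and without that library, and Ldb1, Cbfa2t3 and Lmo2, cofactors in GATA1 complexes, had log2 fold changes of 0.03 ± 0.07, -0.12 ± 0.12 and -0.10 ± 0.18 (SE). Nfe2, Myb and Lyl1 of that list, named after their values were seen, were higher in females without overlap, with log2 fold changes of 1.17 ± 0.35, 0.94 ± 0.33 and 0.61 ± 0.22 (SE), 0.87, 0.62 and 0.51 without that library, and an adjusted p of 0.743 each by the same edgeR test. Late differentiation genes had a median of 0.01 over 9 genes, and 0.00 without that library, with Ube2o at -0.05 ± 0.08, Xpo7 at -0.00 ± 0.05 and Prdx2 at -0.12 ± 0.06 (SE). Prdx2 was higher in males without overlap, as were Xk and Tmod1 of the membrane and skeleton list, at -0.22 ± 0.10 and -0.20 ± 0.08 (SE). Slc14a1 of the membrane and skeleton list was higher in females without overlap, at 0.56 ± 0.26 (SE). Without Male whole DRG 1, Xk, Tmod1 and Slc14a1 lay at -0.22, -0.12 and 0.40. These 3 were also named after their values were seen. From the globin list Hbq1b and Hbq1a came next after Beta-s, at means of 2.12 and 0.371, and Beta-s alone could be tested, with a log2 fold change of 0.99 ± 0.41 (SE) and 0.59 without Male whole DRG 1, and an adjusted p of 0.743 by the quasi-likelihood test of edgeR, adjusted by Benjamini-Hochberg.

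In the hind paw 45 of the other erythroid genes were tested between the sexes, and 0 passed the quasi-likelihood test of edgeR, adjusted by Benjamini-Hochberg, at 0.05, against 0.0768% of all tested genes in each direction. At an unadjusted p under 0.05 there was 1 gene higher in females and 3 higher in males, against 4.25% and 5.49% of all tested genes, and DESeq2 called 0. The median was -0.04, beside -0.01 over all tested genes. For the difference of the sex effect between tissues, 0 of 52 passed the same edgeR test, against 0.0128% of all tested genes. By DESeq2 it was 0 of 52, beside 23 and 13 of all 15666 tested genes with a larger female over male value in whole DRG and in hind paw. At an unadjusted p under 0.05 4 of these 52 had a larger female over male value in whole DRG and 0 in hind paw, beside 4.84% and 2.92% of all tested genes, or 7.76% together.

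Between whole DRG and hind paw, the members other than Tfrc had a ratio of 4.41 or more in favour of whole DRG. The log2 fold changes were 4.88 ± 0.38 for Slc4a1, 3.25 ± 0.32 for Ermap, 2.78 ± 0.43 for Hemgn and 2.20 ± 0.44 (SE) for Alas2. For the members with few hind paw counts, the ratio of whole DRG to hind paw was 15.9 for Klf1, with a 95% exact Poisson interval of 5.91 to 60.2, and 4.41 for Gata1, with an interval of 2.26 to 9.41. Both intervals cover counting error only.

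Of the 52 other erythroid genes tested between tissues, 26 were higher in whole DRG and 20 higher in the hind paw by the quasi-likelihood test of edgeR, adjusted by Benjamini-Hochberg. Of all tested genes 43% were higher in whole DRG and 42.6% higher in the hind paw, so the combined share was close to the background. The median log2 fold change was 0.24, beside 0.00 over all genes. The lists differed in direction. Membrane and skeleton genes were higher in whole DRG for 12 of 15 and lower for 2, with a median of 2.47, which was unchanged with Kel at its bound. Late differentiation genes were higher for 7 of 9 and lower for 0, also at an unadjusted p under 0.05 and by DESeq2, with a median of 1.78. Transcription factor and receptor genes were higher for 1 of 10 and lower for 8, with a median of -1.03, and heme and iron genes were higher for 5 of 17 and lower for 10, with a median of -0.23.

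Some genes with large differences are used by neurons and some are known from red cells. Add2 was higher in whole DRG with a log2 fold change of 7.19 and Ank1 with 3.57. Spna1, which encodes the alpha spectrin of red cells and was named after its values were seen, had 22.9 to 115 in whole DRG and 0 to 6.28 in hind paw. Kel, a blood group gene named for the same reason, had 166 counts in whole DRG and 0 in hind paw, which puts it at least 55.9-fold higher. Slc14a1 of the same list went the other way, with 16.4 to 35.2 in whole DRG and 39.2 to 77.6 in hind paw. Among the lower genes, Ldb1, Lmo2 and Cbfa2t3 had log2 fold changes of -1.28, -0.55 and -0.55. Beta-s was higher in whole DRG, with a log2 fold change of 1.92 and an adjusted p of 0.00528 by the quasi-likelihood test of edgeR, adjusted by Benjamini-Hochberg.

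**Figure D5:**
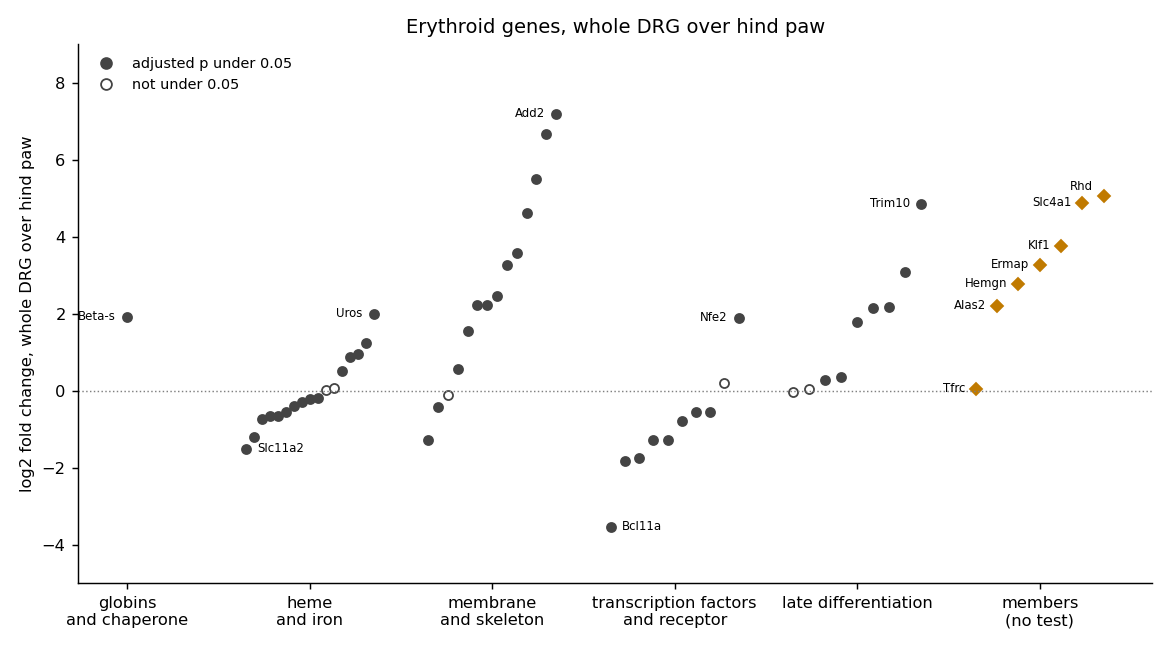
Log2 fold change of whole DRG over hind paw (y axis) of other erythroid genes by list and of the members (x axis), for genes with at least 10 counts in 3 libraries. Each point is 1 gene, filled where the adjusted p is under 0.05, with the highest and lowest of a list named where they change by 1.5 or more, and diamonds are members without a test. Rhag and Kel, at 0 counts in the hind paw, are left out.

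The members' promoter windows were searched for letters that the erythroid factors are known to prefer, because GATA1 and KLF1 are themselves members. RefSeq (GRCm38.p6) gave windows from 250 bases before to 50 after the start for 8 of the 9 genes, all but Slc4a1, with 2 windows for Tfrc, and each was found once in mm9 by exact match. Both strands were searched for the GATA forms AGATAA and also TGATAA, for their relatives AGATAG and also TGATAG, and for CCNCNCCC, which KLF and Sp factors favour and whose matches may overlap each other. AGATAA or TGATAA was present in 6 of the 8 genes, Alas2, Rhag, Rhd, Klf1, Hemgn and Ermap, and such a match is present in 18.6% of all 32851 windows, or 29.8% with all 4 forms. The match began 86 bases before the start in Alas2, 80 in Klf1, 67 in Ermap, 43 in Rhd, 31 in Rhag and 13 in Hemgn. Hemgn held a second match, which began 29 bases after the start. These distances are from the RefSeq start, which can differ from the gene bounds given above, and the windows of Hemgn and Gata1 lie inside those bounds. CCNCNCCC was present in 5 of the 8, Alas2, Rhd, Gata1, Tfrc and Hemgn, and in 49.5% of all windows. A match is a description of letters and shows no binding.

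The stretches below, from 30 bases before the match to 20 after it, show where the GATA letters lie in 5 of these genes. Hemgn is left out because its stretch lies mostly in an annotated exon, and 18 of the 56 bases of Rhag lie in one. Each is written 5′ to 3′ on the gene's strand with the match in capitals. In capitals, TTATCA stands for TGATAA read on the other strand, and TTATCT likewise for AGATAA. In mm9 they lie at chrX:146981844-146981899 (Alas2, plus strand), chr17:40948037-40948092 (Rhag, plus), chr4:134420378-134420433 (Rhd, plus), chr8:87425771-87425826 (Klf1, plus) and chr4:118862642-118862697 (Ermap, minus).
Alas2: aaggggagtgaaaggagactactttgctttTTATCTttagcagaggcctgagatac
Rhag: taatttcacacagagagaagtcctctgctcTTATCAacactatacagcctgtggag
Rhd: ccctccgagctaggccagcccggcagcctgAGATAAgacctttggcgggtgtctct
Klf1: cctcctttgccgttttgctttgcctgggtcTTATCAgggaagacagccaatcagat
Ermap: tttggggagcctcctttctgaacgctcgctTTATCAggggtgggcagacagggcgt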

How the data were processed

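The authors aligned reads to mm9 with TopHat2 and counted them per gene with HTSeq, and their deposited tables hold unnormalized counts of reads for each gene symbol. The annotation, strand setting and versions are not given in the sources used here, and methods and labels name different library kits and read layouts, so reads of genes that overlap on opposite strands cannot be told apart. Members and lists were chosen with earlier results of these data known.

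From the 12 count tables the 5 categories not counted on a gene were left out (71.9% to 86.4% of listed reads). Counts were tested in edgeR 4.0.16 (R 4.3.3) by quasi-likelihood, using RLE factors, a minimum of 10 counts in 3 or more fitted libraries, and Benjamini-Hochberg adjustment over all tested genes. Each SE is the absolute log2 fold change divided by the square root of the F statistic of that fit, for the members too. With 3 against 3 libraries no exact permutation p falls below 0.1 (2-sided), so the model's test was used. On counts simulated like female against male whole DRG, with 200 of 14345 genes changed 4-fold, the fit recovered 199 and made 11 false calls. Like hind paw, with 200 of 14207 changed, it recovered 197 and made 16. The changed genes were drawn only from genes with higher mean counts. These values therefore do not show how often smaller changes, or changes in genes with few counts, would be found. No pair of libraries of a group held the same counts. Gene lengths came from GENCODE vM1 on mm9 by symbol, and all 9 members matched.

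Genes named by rule are the members, the 3 most abundant of each erythroid list in whole DRG, any list gene that passed a sex fit or the interaction, the most abundant gene of each marker list, Alas1, Xist, Ddx3y and the 10 nearest in pattern. Genes outside the rule are marked where named. Of the list genes, 2 are not reported here. Alternatives were DESeq2 1.42.0, TMM factors, no filter, all 12 libraries in 1 fit, the replicate number as a block, RPKM from all listed reads, and leaving out each library. The emphasis on Male whole DRG 1 was chosen after seeing the data.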

Additional observations from a re-analysis of the deposited data

How the results depend on the processing

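Of 118 alternative values of single members between the sexes, 116 moved by less than 1 SD of the libraries of a group, and 113 kept their sign. The 2 that moved further were both without Male whole DRG 3, which put Rhag at 2.13 and Ermap at 1.05 in whole DRG. The signs that turned were those of Hemgn without Male whole DRG 1 and of Alas2 and Tfrc in the hind paw without single libraries.

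In whole DRG, 7 genes passed between the sexes, 15 with DESeq2 and 1 to 6 with a library left out, 1 without each of the male libraries. In the hind paw 22 passed, 208 with DESeq2, 40 without the filter, 88 with 12 libraries in 1 fit and 1 to 8 with a library left out. For the interaction 2 passed, 36 with DESeq2, 4 without the filter and 0 to 4 with a library left out. With the replicate block the hind paw count was 8 and the interaction count 0. The cause was not tested. Whether same-numbered whole DRG and hind paw libraries come from the same mouse is not stated, and libraries were not treated as paired. Correlations of same-numbered libraries ran from -0.39 to 0.31 between the sexes and from -0.25 to 0.11 between the tissues. These values cannot show whether mice were shared. The block kept the counts in whole DRG and between tissues within 1.5 times.

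The median of the other erythroid genes between tissues was 0.24, and 0.12 to 0.29 with a library left out, lowest without Male whole DRG 3. RPKM from all listed reads put Alas2 in whole DRG at 1.80 and Tfrc at 6.96, and kept Tfrc highest. Depth limits Gata1, Klf1, Rhd and Rhag, which the hind paw libraries hold at 0 to 11 counts in all.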
